A study of Mus musculus with 2 samples.

Results

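The genes described are 9 that encode the contractile apparatus of smooth muscle, Acta2, Tagln, Myh11, Cnn1, Actg2, Lmod1, Mylk, Myl9 and Ppp1r14a, of 32285 genes listed in each of the 2 single-cell libraries. They were chosen by name, and all 9 are listed once in both libraries and passed the minimum level of 10 CPM (UMIs of the gene per 1000000 UMIs, over the cells summed) in each depot. The cells were adipose progenitors of C57/BL6J mice at postnatal day 0 by the labels, with pups of both sexes pooled. The methods of the paper give postnatal day 1. The white library (WAT) came from the subcutaneous depot, digested with collagenase for 35 min, and the brown library (BAT) from the interscapular depot, digested for 50 min. Both were grown to confluency for 4 days in the same serum-containing medium, so all values are of cultured cells. With 1 library per depot, depot, digestion time and library cannot be told apart, and no p-value or standard error was computed. Parentheses hold exact 95% intervals, Poisson for levels, conditional binomial for log2 ratios and Clopper-Pearson for shares, which cover counting error only.

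Smooth muscle shortens when myosin filaments pull on actin filaments. The kinase encoded by Mylk phosphorylates the myosin regulatory light chain and so starts the pull, and a phosphatase stops it. Transcription of many of these genes runs through serum response factor, which binds CArG boxes and works with the coactivators myocardin and the myocardin-related factors. In adipose tissue the full set marks vascular smooth muscle, while cultured fibroblasts and preadipocytes often carry part of it, Acta2 above all.

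The filters on genes, UMIs and mitochondrial share left 4407 white and 6137 brown cells. Without the glial, myeloid and myoblast clusters, 4331 white and 5958 brown precursor cells remained, with medians of 26949 and 26413 UMIs per cell. The cluster names are those of the authors. The labels used here cover 1999 precursor cells per depot, and cluster sizes below count these cells only: early progenitors (wAPC 1 to wAPC 4, bAPC 1 to bAPC 5), committed adipogenic precursors (wCAPs, bCAPs), fibro-adipogenic progenitor-like cells (wFAPLs, bFAPLs) and, in WAT, 15 cells called differentiating wFAPLs. A level by cluster is a description and no test, because the cells had been clustered on these very UMIs. Precursor markers were present, with Pdgfra at 117 and 83.7 CPM and Dlk1 at 502 and 383 CPM in WAT and BAT. The 6 endothelial markers summed to 4.60 and 5.30 CPM in the precursor cells. 9 cell barcodes occurred in both libraries, 8 of them among the precursor cells of each. Doublets were not called apart from the upper limit on UMIs.

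A RefSeq promoter (GRCm38.p6) was at hand for 6 of the contractile genes, and not for Tagln, Myh11 and Actg2. The promoters of Acta2 and Myl9 are shown because, of the 6, these 2 held a CArG box or a near match. Whether the boxes bear on the levels below was not tested. A promoter ran from 250 bases before to 50 after its own start site, which need not be the gene start given below. A CArG box is C, C, then 6 bases of A or T, then G, G, and it reads as the same pattern on both strands. Capitals mark the boxes, counting also those with 1 of the 6 central bases a C or G. The Acta2 promoter lies at chr19:34255324-34255623 on the minus strand and that of Myl9 at chr2:156775214-156775513 on the plus strand.
Acta2: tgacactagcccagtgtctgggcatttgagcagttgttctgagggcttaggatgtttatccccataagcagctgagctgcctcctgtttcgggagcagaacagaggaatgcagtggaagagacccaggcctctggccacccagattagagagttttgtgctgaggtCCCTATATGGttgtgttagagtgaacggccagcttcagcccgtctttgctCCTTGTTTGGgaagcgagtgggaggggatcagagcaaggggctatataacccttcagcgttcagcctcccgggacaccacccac
Myl9: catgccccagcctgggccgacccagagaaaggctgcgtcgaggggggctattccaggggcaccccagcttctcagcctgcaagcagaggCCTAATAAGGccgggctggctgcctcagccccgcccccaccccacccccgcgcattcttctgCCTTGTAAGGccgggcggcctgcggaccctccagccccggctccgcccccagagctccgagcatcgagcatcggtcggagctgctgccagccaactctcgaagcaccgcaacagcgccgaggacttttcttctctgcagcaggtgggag
The Acta2 promoter held 2 near matches, starting 84 and 34 bases before the start site. That of Myl9 held 1 exact box, starting 161 bases before the start site, and 1 near match at 99. Of all 32851 mouse promoters of this length, 1.63% held an exact box and 9.98% an exact or near one. Cnn1, Lmod1, Mylk and Ppp1r14a had no match in these letters, which says nothing of the factor. The Mylk window (chr16:34784700-34784999) lay inside the gene, which starts at 34745210 in the annotation used below.

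The genes lie apart from each other in the genome (GRCm38, GENCODE M21). Acta2 (ENSMUSG00000035783) spans chr19:34241090-34255590, Tagln (ENSMUSG00000032085) chr9:45929619-45936058 and Myh11 (ENSMUSG00000018830) chr16:14194535-14291372, all on the minus strand. Only Tagln had other genes over its last 500 bases, Pcsk7 and Gm48529 on the opposite strand. The longest identical run between the Acta2 and Actg2 transcripts was 29 bases, and 8 bases within the last 500, the end that these 3′ libraries read.

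The share of precursor cells with at least 1 UMI of a gene, after each cell was thinned to 10000 UMIs, separated the 9 genes. A gene was called wide at 50% of cells or more in both depots, and kept to few cells under 10% in both. 4 of 9 were wide. Acta2, the smooth muscle α-actin, was found in 99.0% of white cells (98.7 to 99.3%) and 99.8% of brown cells (99.7 to 99.9%). Tagln, which encodes the actin-binding protein transgelin, was found in 97.3% and 99.1%. Myl9, the regulatory light chain of myosin, was found in 79.1% of white and 88.4% of brown cells, and Mylk in 71.4% and 58.9%. Mylk in BAT was the nearest to the limit. At the same depth Acta2 also had a UMI in 25.5% of white and 57.4% of brown glial cells, and in 51.7% and 69.2% of myeloid cells, so 1 UMI alone is weak evidence of expression for the most abundant genes. For Myl9 the glial shares were 10.6% and 38.2%, and for Mylk 6.38% and 11.8%.

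Only Myh11, the smooth muscle myosin heavy chain, was kept to few cells, with 9.26% of white cells (8.41 to 10.2%) and 7.96% of brown cells (7.28 to 8.67%). At full depth its shares were 15.4% and 14.4%, and no gene was below the limit. Ppp1r14a, which encodes an inhibitor of myosin phosphatase, lay just above the limit at 11.8% and 16.8%. Between the extremes were Actg2, the enteric smooth muscle γ-actin (35.4% and 55.8%), Cnn1, the actin-binding calponin (34.2% and 48.7%), and Lmod1, which encodes the actin nucleator leiomodin (24.8% and 33.8%). For the 4 genes between the limits, every share was higher in brown than in white cells.

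A low share can come from a low level as well as from few cells, so the UMIs were also ranked by cell. The part held by the top cells can also rise at a low level, so the ranking does not fully separate these. At full depth, the 5% of cells with most Myh11 held 87.0% of its UMIs in WAT and 74.9% in BAT. 28 of 4331 white cells and 98 of 5958 brown cells held 50% of them. Dealt evenly over the cells at random, the thinned UMIs of Myh11 would have reached 31.1% of white and 14.5% of brown cells. By the same rule the values were 18.6% and 22.5% for Ppp1r14a, 36.7% and 44.5% for Lmod1, 52.5% and 66.7% for Cnn1 and 72.9% and 91.1% for Actg2. Ppp1r14a was the next most concentrated, with 63.3% and 42.9% of its UMIs in the top 5% of cells, followed in WAT by Actg2 with 53.0%, against 33.1% in BAT. Lmod1 (38.9% and 28.3%) and Cnn1 (36.4% and 27.9%) came after it. For Mylk the value was 27.1% in WAT and 27.4% in BAT.

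At the other end, the top 5% of cells held 19.6% and 15.2% of the UMIs of Acta2, 19.2% and 15.9% of those of Tagln and 22.7% and 17.6% of those of Myl9. Single cells still spread widely around these averages. Acta2 ran from 774 CPM at the 10th percentile of white cells over a median of 2910 to 6509 at the 90th, and reached 57221 in the highest cell. In brown cells the same points were 1542, 4116, 8323 and 48304 CPM. For 8 of 9 genes the UMIs were more concentrated in white than in brown cells, Mylk being the exception. All of these 8 but Myh11 also had a lower level in WAT, and the part of level in this was not tested.

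**Figure D1:**
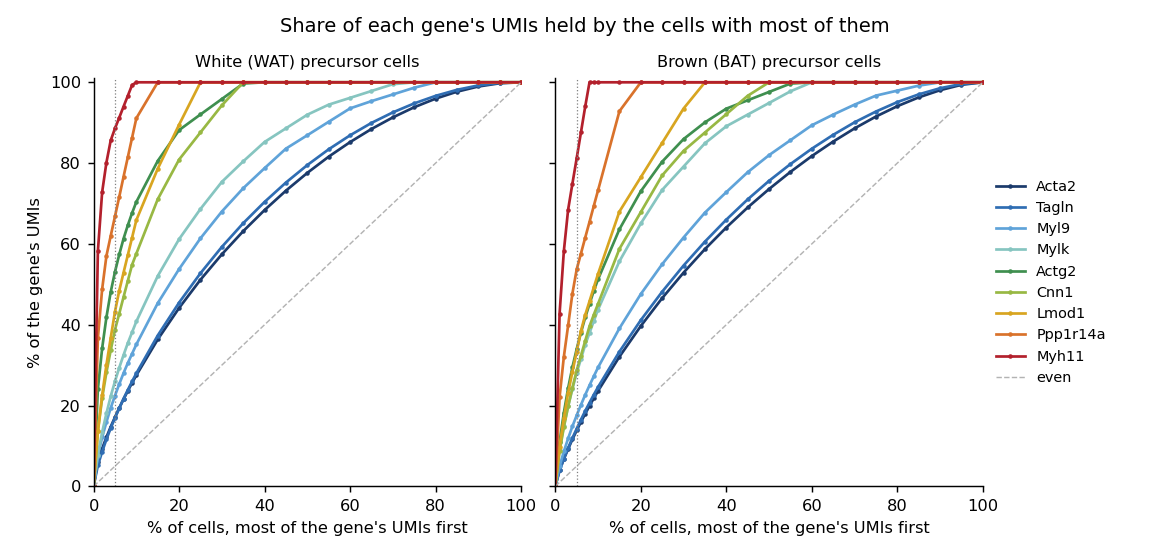
Share of each gene's UMIs (y axis, percent) held by the precursor cells with most of them (x axis, percent of cells, after thinning to 10000 UMIs), in WAT and BAT, with the dashed line for an equal share in every cell and the dotted line at 5% of cells. The Myh11 curve reaches 88.6% in WAT and 81.2% in BAT at 5% of cells, whereas Acta2 and Tagln run nearest to the dashed line.

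Summed over all precursor cells, 7 of 9 genes were lower in WAT than in BAT and 2 were higher. Acta2 stood at 3559 CPM (3548 to 3569) in WAT and 4679 CPM (4669 to 4689) in BAT, a log2 ratio of -0.39. Tagln stood at 1559 and 2035 CPM (log2 ratio -0.38), and Myl9 at 309 and 402 CPM (-0.38). Cnn1 was at 79.8 and 115 CPM (-0.53), Lmod1 at 47.3 and 59.1 CPM (-0.32) and Ppp1r14a at 21.6 and 25.9 CPM (-0.26). Actg2 was the lowest in WAT relative to BAT, at 139 and 237 CPM (-0.76, -0.79 to -0.74). The lower level in WAT thus held for the actins, their binding proteins and the light chain alike, with ratios between -0.76 and -0.26 against a median of 0.04 over all genes tested. Glial cells, described below, also held less of these genes in WAT than in BAT. Their Acta2 was at 140 and 575 CPM and their Tagln at 79.5 and 388 CPM. The part of free RNA in the depot ratios was not tested.

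The heavy chain and the kinase went the other way. Myh11 was at 41.2 CPM (40.0 to 42.3) in WAT and 15.6 CPM (15.0 to 16.2) in BAT, a log2 ratio of 1.40 (1.33 to 1.47). Mylk was at 299 CPM in WAT and 172 CPM in BAT (0.80, 0.78 to 0.82). Only Myh11, 1 of 9, was at least 2-fold apart, and 1.84% of the 9037 genes with at least 10 CPM in either depot were. The Myh11 difference rested on few cells. Without cells holding 3 or more of its UMIs at full depth and without the differentiating wFAPLs, 259 white and 249 brown cells in all, the log2 ratio was -0.016. This step removes the highest values of Myh11 itself. By the same step Actg2 went to -1.26 and became the only 1 of the 9 at least 2-fold apart, and Ppp1r14a went to -0.83. The share of all genes past this size after the step is not given.

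**Figure D2:**
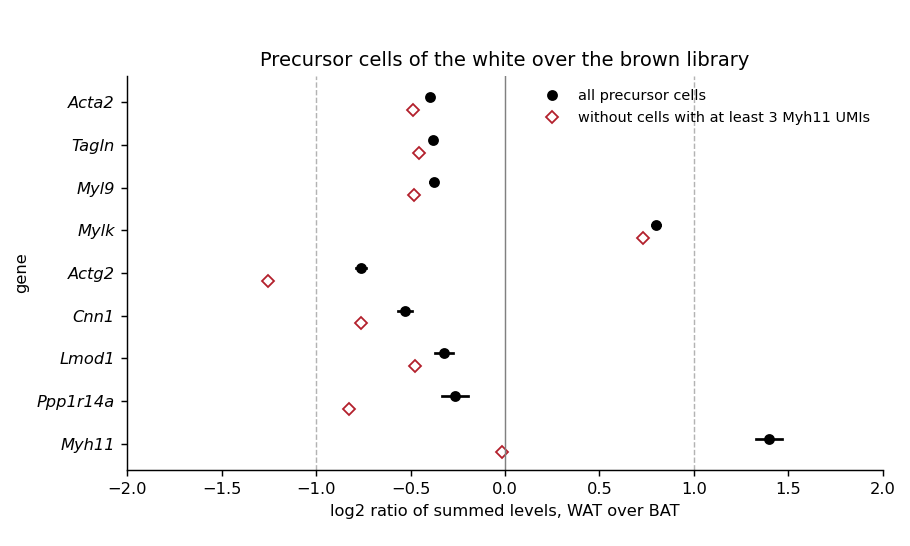
Log2 ratio of the summed level in WAT over BAT precursor cells (x axis) for each gene, as black points with 95% counting intervals for all cells and open diamonds without cells of 3 or more Myh11 UMIs at full depth and differentiating wFAPLs; dashed lines mark 2-fold. With all cells Myh11 alone lies past a dashed line at 1.40, and without the Myh11-rich cells it lies at -0.016 and Actg2 at -1.26.

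Cell cycle phase moved with some of the levels. In WAT, Acta2 was at 3161 CPM in cells scored as G1, 4182 CPM in S and 4062 CPM in G2M, and Tagln at 1420, 1865 and 1663 CPM. In BAT the Acta2 levels were closer, at 4510, 4876 and 4984 CPM. Myh11 in WAT was at 41.4, 39.0 and 42.3 CPM, with intervals that overlapped. The phases also differed in depth, with white medians of 25353, 31893 and 31116 UMIs per cell, and the part of depth in this was not tested.

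Across the 7 white clusters, every one of the 9 genes was highest in the 15 differentiating wFAPLs. The summed level of 10 pericyte markers was highest there too, at 845 CPM against 177 to 471 CPM in the other 6 clusters. So was that of 15 other contractile genes, at 29839 CPM against 5269 to 8426 CPM. Not every pericyte marker followed the sum, since Cspg4 and Ndufa4l2 reached 10 CPM in wFAPLs but not in the differentiating wFAPLs. The part of mural cells in these levels was not tested. Acta2 reached 24520 CPM (24077 to 24968) in the differentiating wFAPLs, against 2352 CPM in wCAPs to 5035 CPM in wAPC 1 elsewhere. Tagln reached 8307 CPM, against 1024 to 2410 CPM in the other clusters. Myh11 reached 2522 CPM (2382 to 2669), followed by wFAPLs at 102 CPM (94.96 to 110), wAPC 1 at 25.6 CPM and 2.36 to 7.38 CPM in the rest. All 15 cells had a Myh11 UMI at the thinned depth. The highest to lowest cluster differed 10.4-fold for Acta2, 8.11-fold for Tagln and 13.8-fold for Myl9, but 1070-fold for Myh11 and 189-fold for Ppp1r14a.

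Without the 15 cells these folds were 2.14 for Acta2, 2.35 for Tagln and 2.64 for Myl9, and 43.4 for Myh11, 27.5 for Lmod1, 13.3 for Ppp1r14a and 8.63 for Actg2. The next cluster was then wAPC 1 for Acta2, Tagln, Myl9, Cnn1 and Lmod1, and wFAPLs for Myh11, Actg2, Mylk and Ppp1r14a. Lmod1 was at 97.1 CPM (92.1 to 102) in wAPC 1 and 74.3 CPM (68.2 to 80.9) in wFAPLs, and 3.54 CPM (1.3 to 7.7) in wAPC 4. Actg2 was at 370 CPM (356 to 385) in wFAPLs and 141 CPM (135 to 148) in wAPC 1. Cnn1 was at 131 CPM (125 to 137) in wAPC 1 and 119 CPM (111 to 127) in wFAPLs, neighbours whose intervals overlapped. Toward the low end, neighbours among wCAPs, wAPC 2 and wAPC 4 had overlapping intervals for Acta2, Myh11, Cnn1, Actg2, Myl9 and Ppp1r14a.

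In BAT the clusters lay closer together, and 2 of them shared the top. bAPC 4 was highest for Acta2, Tagln, Cnn1, Lmod1 and Mylk, and bFAPLs for Myh11, Actg2, Myl9 and Ppp1r14a. Acta2 ran from 3295 CPM in bAPC 1 to 5732 CPM in bAPC 4 (1.74-fold), where it did not differ beyond counting error from the 5685 CPM of bAPC 2. Tagln ran from 1545 to 2959 CPM over the same clusters. Lmod1 was at 144 CPM (134 to 156) in bAPC 4 and at 73.0 CPM (67.0 to 79.3) in bFAPLs, with bAPC 3 lowest at 22.1 CPM. Cnn1 was at 217 CPM (203 to 230) in bAPC 4 against 80.3 to 132 CPM in the others.

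Myh11 in BAT ran from 3.73 CPM in bAPC 1 to 48.4 CPM (43.6 to 53.7) in bFAPLs, with bAPC 4 at 26.4 CPM (21.9 to 31.5) and bAPC 5 at 17.03 CPM (12.8 to 22.2), which overlapped. Actg2 was at 519 CPM (503 to 535) in bFAPLs, with the next cluster, bAPC 4, at 271 CPM and bCAPs lowest at 122 CPM. Mylk was at 249 CPM in bAPC 4, 245 CPM in bFAPLs and 238 CPM in bCAPs, each overlapping with the next in order, and at 113 to 152 CPM in the others.

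**Figure D3:**
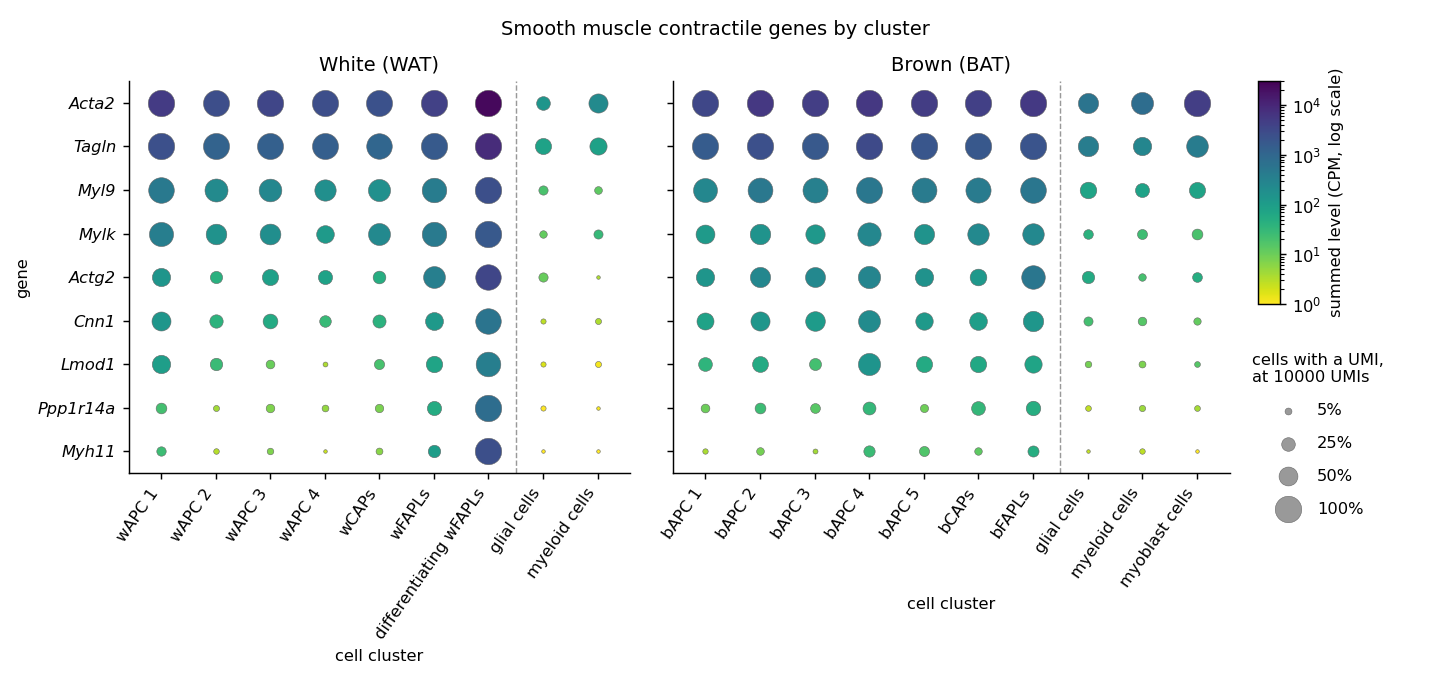
Level of each gene (colour, summed CPM on a log scale) and share of cells with a UMI at 10000 UMIs (dot area) in the authors' clusters of WAT and BAT and, right of the dashed lines, in the cell types left out of the precursor cells. Acta2, Tagln, Myl9 and Mylk were found in at least 43.5% of the cells of every precursor cluster, while Myh11 and Ppp1r14a were found in at most 29.0% outside the differentiating wFAPLs.

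Glial and myeloid cells, which the precursor cells exclude, also held UMIs of these genes, and whether these were free RNA was not tested. Acta2 summed to 140 CPM in 47 white glial cells and 227 CPM in 29 white myeloid cells. Over the 9 genes the white glial cells held 0 to 7.87% of the precursor level. In BAT the values were higher, with Acta2 at 575 and 787 CPM, and 10.2 to 24.3% of the precursor level in 68 glial cells and 8.70 to 19.5% in 78 myeloid cells. Median depths of the glial cells were 20672 and 19494 UMIs in WAT and BAT. Acta2 UMIs outnumbered those of Tagln 2.28 to 1 in white and 2.30 to 1 in brown precursor cells, and the ratio lay between 1.48 and 3.00 in the glial and myeloid cells of the 2 libraries. Myh11 had 0 UMIs in white glial cells, which allows up to 2.74 CPM. In BAT, 2.6% of myeloid cells, 2 of 78, had a Myh11 UMI at the thinned depth, and the 2.4% of bAPC 1 and 1.8% of bAPC 3 were no higher. The 1.6% of wAPC 4 cells with an Lmod1 UMI was likewise no higher than the 2.1% of white glial cells. These shares are not read as expression.

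The 33 brown myoblasts, with Myog at 2819.5 CPM and Myod1 at 696 CPM, stood apart from both. They held Acta2 at 4684 CPM (4550 to 4821), beside the 4679 CPM of the precursor cells, but Tagln at 411 CPM, 20.2% of the precursor level. Acta2 UMIs outnumbered those of Tagln 11.4 to 1 there. The other 7 genes were at 0 to 25.7% of the precursor level, with Myh11 at 0 UMIs, which allows up to 3.03 CPM. The striated muscle actins Acta1 and Actc1 were at 5872 and 5503 CPM in these cells. The Acta2 and Acta1 transcripts shared a longest run of 29 bases, and 11 within the last 500.

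Within WAT, all 9 genes were higher in wFAPLs than in wCAPs. Myh11 was at 102 and 6.14 CPM, a log2 ratio of 4.06 (3.78 to 4.35), Actg2 at 370 and 49.1 CPM (2.91, 2.81 to 3.02), and Ppp1r14a at 54.9 and 8.05 CPM (2.77, 2.50 to 3.05). Lmod1 (1.88), Cnn1 (1.52) and Myl9 (1.20) were also at least 2-fold higher, so 6 of 9 passed this size, as did 2.25% of 9199 genes tested. Of the 6, Myh11 and Ppp1r14a were below 10 CPM in wCAPs and passed the minimum through wFAPLs alone, which set their direction. Mylk (0.93), Acta2 (0.82) and Tagln (0.74), 3 of the 4 wide genes, had the smallest ratios. The median over the 9 was 1.52, against -0.01 over all genes tested. Without the cells of 3 or more Myh11 UMIs at full depth, 42 of 256 wFAPLs and 13 of 674 wCAPs, 4 of 9 passed. The ratio of Myh11 was then 1.60, at a level under the minimum of 10 CPM, and that of Myl9 was 0.90. The step drops cells by their Myh11, with which the other 8 genes rose. It took 16.4% of wFAPLs and 1.93% of wCAPs, so a smaller contrast was built into it. The share of all genes passing at this setting is not given.

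In BAT the same contrast was smaller. bFAPLs exceeded bCAPs at least 2-fold for Actg2, at 519 and 122 CPM (2.09, 1.99 to 2.19), and Myh11, at 48.4 and 13.04 CPM (1.89, 1.58 to 2.22), 2 of 9 where 1.86% of 9148 genes were. The median was 0.39, against -0.04 over all genes. Ppp1r14a had a ratio of 0.60, Cnn1 of 0.42, Acta2 of 0.39, Myl9 of 0.32, Lmod1 of 0.25 and Tagln of 0.20. Mylk, at 245 and 238 CPM, had a ratio of 0.04 (-0.05 to 0.13), an interval that holds 0. Without the cells of 3 or more Myh11 UMIs, 31 of 279 bFAPLs and 11 of 296 bCAPs, Actg2 alone passed (1.93). The ratios were then 0.93 for Myh11, 0.15 for Ppp1r14a, 0.09 for Cnn1 and -0.24 for Mylk. Here too the step took more of the bFAPLs (11.1%) than of the bCAPs (3.72%), so a smaller contrast was built into it. The share of all genes passing at this setting is not given either. Whether the contrast differs between the depots beyond the spread of libraries cannot be tested with 1 library each.

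The committed cells were also compared between the depots. In wCAPs against bCAPs, 6 of 9 genes were at least 2-fold lower, where 2.14% of 9235 genes were: Ppp1r14a at 8.05 and 32.3 CPM (-2.01), Lmod1 (-1.60), Actg2 (-1.31), Cnn1 (-1.25), Myl9 (-1.23) and Myh11 (-1.09). Ppp1r14a and Myh11, the latter at 6.14 and 13.04 CPM, were below 10 CPM in wCAPs. They passed the minimum through bCAPs alone, which set their direction. Between wFAPLs and bFAPLs only Myh11 was at least 2-fold apart (1.08, 0.89 to 1.26), 1 of 9, where 1.69% of 9136 genes were. Without the Myh11-rich cells its ratio was 0.33, and with the labels carried over to all cells it was 0.66. Lmod1, at 74.3 and 73.0 CPM, and Ppp1r14a, at 54.9 and 48.8 CPM, had intervals that held 0. These 4 contrasts are made from the same 4 clusters and are not independent of each other.

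**Figure D4:**
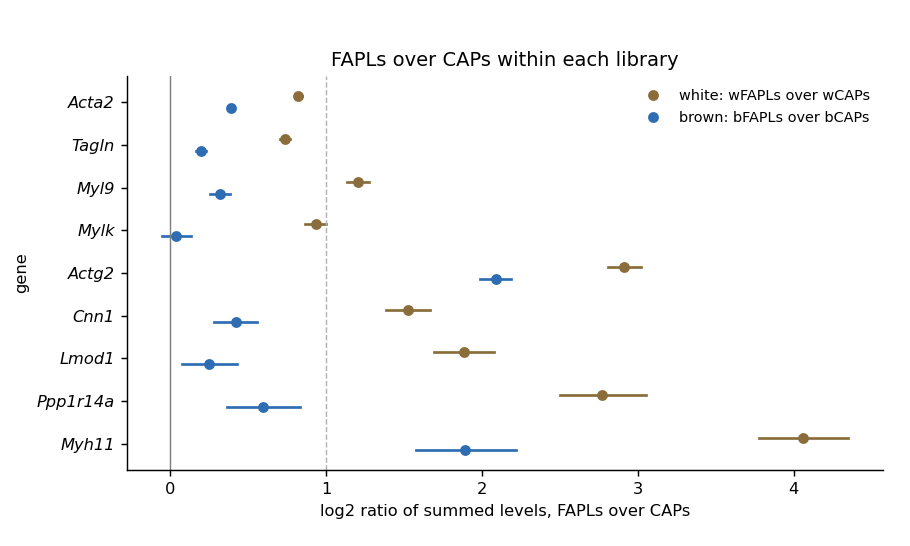
Log2 ratio of the summed level in FAPLs over CAPs (x axis) for each gene, white and brown, with 95% counting intervals and a dashed line at 2-fold. All 9 white points lie above 0 and 6 beyond the dashed line, while in brown Actg2 at 2.09 and Myh11 at 1.89 lie beyond it.

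Markers of pericytes, the mural cells of small vessels, were also read in this contrast. Of 10 markers, 8 had at least 10 CPM in either white cluster, and 5 of these were at least 2-fold higher in wFAPLs, where 2.25% of all genes were, among them Rgs5 at 28.3 and 0.62 CPM, Kcnj8 at 31.0 and 3.301 CPM and Abcc9 at 60.2 and 10.3 CPM. The 10 summed to 385 CPM in wFAPLs and 213 CPM in wCAPs, with Higd1b at 0 in both. In BAT 6 of 8 were at least 2-fold higher in bFAPLs, where 1.86% of all genes were, and the list summed to 448 and 208 CPM. Rgs5, Kcnj8, Cspg4 and Mcam reached 10 CPM in wFAPLs but not in wCAPs, so their direction was set by the minimum. The same held in BAT for Rgs5, Kcnj8, Mcam and Ndufa4l2, which reached it in bFAPLs but not in bCAPs. Of the markers called, Abcc9 in WAT, and Abcc9 and Cspg4 in BAT, reached it in both clusters. The myeloid markers summed to 31.1 CPM in wFAPLs and 6.14 CPM in wCAPs, of which Lyz2 made up 19.9 and 2.48 CPM. Their part in the contractile values was not tested.

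Cells were then grouped by their Myh11 UMIs at the thinned depth, to see where the other 8 genes stood in the cells that held it. In WAT 3929 cells had none, 282 had 1 to 2, 76 had 3 to 9 and 43 had 10 or more, and in BAT the numbers were 5484, 389, 77 and 8. The summed levels of all 8 genes increased over the 4 classes in order, in both depots, although the intervals of the upper 2 brown classes overlapped for Lmod1. Acta2 stood at 3071, 5382, 7942 and 19091 CPM in WAT and at 4385, 7292, 10387 and 23038 CPM in BAT. Tagln went from 1359 to 6756 CPM in WAT and from 1890 to 8175 CPM in BAT between the outer classes.

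In WAT the 4 genes between the limits had larger folds than the 4 wide genes. Ppp1r14a went from 11.9 to 595 CPM in WAT, a 50.2-fold difference, and from 20.1 to 650 CPM in BAT, 32.3-fold. Actg2 went from 81.5 to 2698 CPM in WAT, 33.1-fold, and from 212 to 1775 CPM in BAT, 8.39-fold. Cnn1 had folds of 12.7 and 7.68, and Lmod1 of 10.3 and 5.46. The 4 wide genes had folds of 4.97 to 7.83 in WAT and 4.32 to 6.81 in BAT. The brown class of 10 or more holds 8 cells only. Median full depth was 26885 UMIs in white cells with no Myh11 and 33476 in those with 10 or more, and 26362 and 24681 in BAT.

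**Figure D5:**
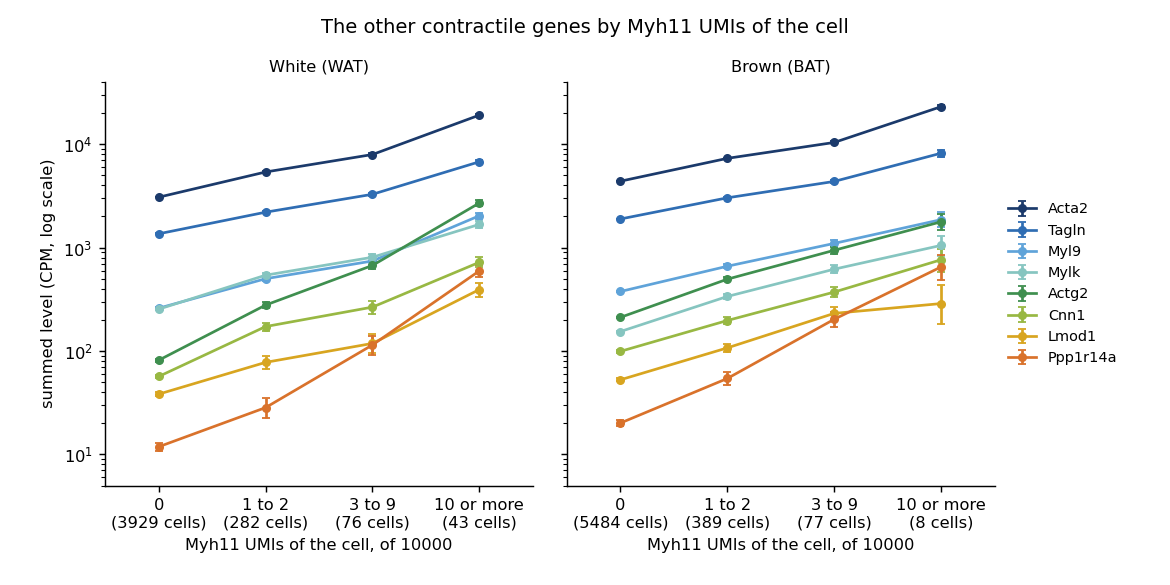
Summed level of the other 8 genes (y axis, CPM on a log scale, with 95% counting intervals) in precursor cells with 0, 1 to 2, 3 to 9 and 10 or more Myh11 UMIs of 10000 (x axis), WAT and BAT. Every line rises from left to right, and Ppp1r14a rises most steeply in both depots.

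Among the labelled cells, those with 10 or more Myh11 UMIs lay in wFAPLs and differentiating wFAPLs only, and those with 3 to 9 were spread more widely. Of the 23 labelled white cells with 10 or more UMIs, 13 were differentiating wFAPLs and 10 wFAPLs. That is 13 of the 15 differentiating wFAPLs and 10 of 256 wFAPLs. The 34 labelled white cells with 3 to 9 UMIs included 15 wFAPLs and 14 wAPC 1 cells. In BAT none of the labelled cells had 10 or more, and of 29 with 3 to 9 UMIs 13 were bFAPLs, 5 bAPC 4, 4 bAPC 2, 4 bCAPs and 3 bAPC 5. The 203 wFAPLs with no Myh11 UMI made up 79.3% of their cluster.

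Other genes moved with the class as well. Myocd, which encodes myocardin, went from 2.65 to 51.2 CPM in WAT and from 3.14 to 75.0 CPM in BAT, the last a level of 6 UMIs. The desmin gene Des went from 1.32 to 88.4 CPM in WAT and had 0 UMIs in the 8 brown cells. Tinagl1, which encodes a matricellular protein, went from 8.32 to 581 CPM in WAT and from 7.82 to 788 CPM in BAT. The pericyte list summed to 217 and 821 CPM in the outer white classes and to 231 and 600 CPM in the brown. Higd1b, at 0 in white cells without Myh11, reached 67.4 CPM in the highest class, whereas in BAT it was at 0 in both. Rgs5 went from 2.95 to 95.3 CPM in WAT and from 14.1 to 25 CPM in BAT, the last a level of 2 UMIs. Dlk1, a preadipocyte marker, was at 536 and 65.1 CPM in the outer white classes and at 404 and 62.5 CPM in the brown, and Pdgfra at 124 and 32.6 CPM in the white. Fabp4, a fatty acid binding protein of adipocytes, was at 63.1 and 435 CPM in WAT and at 129 and 612 CPM in BAT. Pparg, the other adipogenic gene of that list, went the other way, at 56.2 and 34.9 CPM in WAT and 57.7 and 50 CPM in BAT. Pdgfrb, which belongs to both the pericyte and the precursor list, was at 148 and 244 CPM in WAT and at 148 and 162.5 CPM in BAT.

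Levels of several of the genes were correlated from cell to cell. Over 4330 thinned white cells and 5958 brown cells, Spearman's rho was 0.73 and 0.71 between Acta2 and Tagln, 0.61 and 0.63 between Acta2 and Myl9, and 0.60 and 0.55 between Tagln and Myl9. Acta2 with Cnn1 gave 0.45 and 0.43, with Actg2 0.40 and 0.41, and with the wide gene Mylk 0.37 and 0.34. The cells of a library share culture, library and depth, and the values are descriptions. Pairs with the sparse genes Myh11, Ppp1r14a or Lmod1 were at 0.33 or below, where low counts limit the measure.

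Over the 14 clusters of both depots, the 5 genes of 10229 whose log2(CPM + 1) was most like that of Acta2 by Pearson's r were Myl9 (0.988), Tpm2 (0.982), Tmem128 (0.980), Tagln (0.978) and Dstn (0.977). Without the differentiating wFAPLs the values for these genes were 0.967, 0.932, 0.927, 0.932 and 0.922 over 13 clusters. Myl9 encodes the light chain, Tpm2 the β-tropomyosin that lies along actin filaments and Dstn the actin-severing destrin. For Myh11 they were Pdgfa (0.970), Acot9 (0.965), Bcam (0.962), Cav2 (0.960) and Hspb6 (0.960), with 0.908, 0.890, 0.888, 0.877 and 0.888 without those cells. Acta2 and Myh11 themselves had an r of 0.883 over the 14 and 0.620 over the 13 clusters. The clusters share libraries and cells of one culture, so these are descriptions.

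The rest of the apparatus was read from lists. Of 15 other genes of the smooth muscle cytoskeleton, 14 reached 10 CPM in wFAPLs or wCAPs, all 14 were above 0, and 6 were at least 2-fold higher in wFAPLs, where 2.25% of all genes were: Tpm2, Csrp1, Synpo2, Ldb3, Mustn1 and Tinagl1. Tpm2 was at 1046 and 515 CPM (1.02, 0.98 to 1.06), and Tpm1, the α-tropomyosin, at 0.64. Synpo2, Ldb3, Mustn1 and Tinagl1 reached 10 CPM in wFAPLs but not in wCAPs, so their direction was set by the minimum. In BAT 2 of 13 passed, where 1.86% of all genes did, Mustn1 (2.47) and Tinagl1 (2.00). Both reached 10 CPM in bFAPLs but not in bCAPs, so the same limit holds for them. The list's median was 0.10 in BAT against 0.90 in WAT. Between the depots none of 13 was 2-fold apart, where 1.84% of all genes were.

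A list of 13 genes of non-muscle myosin and of the control of its light chain was read in the same way. Among them were Rhoa, Rock1, Rock2, the phosphatase subunit Ppp1r12a and the non-muscle heavy chains Myh9 and Myh10. None of 13 was 2-fold higher in FAPLs than in CAPs of either depot or 2-fold apart between the depots, which is near the shares of all genes (2.25%, 1.86% and 1.84%). Their ratios ran from -0.44 to 0.52 in WAT and from -0.83 to 0.25 in BAT, with Myh10 lowest in both. Of 9 smooth muscle channels and receptors, 5 reached the minimum, and 1 of 5 passed in WAT, the angiotensin receptor gene Agtr1a (1.02, 0.65 to 1.39), and 0 of 5 in BAT.

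Among 11 regulators and targets of serum response factor, 9 reached the minimum in either contrast. The target Ccn2 was at 166 and 48.7 CPM in wFAPLs and wCAPs (1.77, 1.65 to 1.89). It was the only 1 of 9 past 2-fold in WAT, where 2.25% of all genes were higher by that size. In BAT the only 1 of 9 was Klf4, a factor known to oppose the contractile genes, where 1.86% of all genes were. Klf4 was at 99.4 and 42.5 CPM (1.22, 1.04 to 1.41). Srf itself, at 14.5 and 10.1 CPM in wFAPLs and wCAPs, had ratios of 0.52 and -0.22, the latter with an interval that held 0. The coactivator genes Mrtfa and Mrtfb were at 112 and 50.9 CPM over all white and 104 and 41.5 CPM over all brown precursor cells. The cytoplasmic actins Actb and Actg1 were at 4557 and 2392 CPM in WAT, with depot ratios of -0.21 and -0.31, beside -0.39 for Acta2. Acta1 was the only 1 of 6 genes tested of that list at least 2-fold lower in WAT than in BAT, at 9.77 and 22.4 CPM (-1.19). Of all genes, 1.84% were 2-fold apart either way.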

How the data were processed

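Cultured precursor cells of WAT and BAT were measured by droplet single-cell RNA sequencing, 1 library per depot. The authors deposited raw UMI counts, 1 value for each gene in each cell, made with Cell Ranger, version 7.0.1 per the labels, against mm10, and not normalized. Whether intronic reads were counted is not given in the sources used here.

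The 9 genes and all lists were chosen with earlier results of these data known. Kept cells had between 3900 and 7700 genes (of those found in at least 3 captured cells), 1.7 to 5% mitochondrial UMIs and 6000 to 60000 UMIs. Glial, myeloid and myoblast clusters were found with Seurat 5.3.0 in R 4.3.3 (2000 variable genes, 10 components, resolution 0.5), from at least 3 markers at 50 CPM and 2 times the other clusters. The authors' labels were used for 1999 precursor cells per depot. Labels carried over to the other cells by 15 nearest neighbours, an alternative, returned the own label of 91.7% of white and 88.2% of brown held-out cells.

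Counts were summed per group as CPM with Python 3.11.15, numpy 2.4.6, scipy 1.17.1 and pandas 2.3.3. Genes below 10 CPM in both groups were left out of ratios. A count of 0 allows up to 3 counts. Cells were thinned to 10000 UMIs for shares and classes, which left out 1 white cell. Precursor cells held 122901443 UMIs in WAT and 169524786 in BAT. PCR duplicates are removed by UMIs, and the intervals cover counting error only. Named were the 9 genes, list genes with at least 50 CPM in any precursor cluster, marker genes, and the 5 genes most like Acta2 and most like Myh11. List genes named below that level were chosen after their values were seen. The ratios and intervals were tested on simulated Poisson counts with 200 changed genes, and the thinning on white cells of the data. In all, 4 of 4 tests passed. The simulated counts held no spread between cells or libraries. Alternatives were another scale, per-cell means, G1 cells, other cells, labels, minimums and depths, and a set without differentiating wFAPLs and cells of 3 or more Myh11 UMIs at full depth.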

Additional observations from a re-analysis of the deposited data

Results flagged for a closer look

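Of 66 list genes and contractile genes that reached 10 CPM in both contrasts, 10 had log2 ratios of FAPLs over CAPs of opposite sign in the 2 depots, with intervals that left out 0 in both. Of all 8877 genes that reached it, 302 did so, or 3.40%, and the lists were chosen with earlier results known. The difference between depots was not tested, since each depot has 1 library. The ratios in WAT and BAT were 0.29 and -0.18 for the cytoplasmic actin Actb, 0.35 and -0.25 for Actg1, 0.61 and -0.11 for the calponin Cnn2, and 0.68 and -0.15 for the vinculin gene Vcl. They were 1.02 and -0.50 for the angiotensin receptor gene Agtr1a and 0.27 and -0.25 for the endothelin receptor gene Ednra. Lpp had 0.24 and -0.064, the coactivator gene Mrtfa 0.21 and -0.16, the phosphatase subunit Ppp1r12a 0.15 and -0.12 and the kinase Rock2 0.22 and -0.10. None of the 9 contractile genes was among them. Of the 10, Agtr1a alone was past 2-fold in either depot.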

How the results depend on the processing

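No paired analysis was possible because each depot had 1 library. The alternatives for wFAPLs over bFAPLs and wCAPs over bCAPs were chosen after seeing the data. Of 270 single-gene ratios, 145 stayed within the interval of the reported value, and 13 changed sign. Of these Myh11 in WAT over BAT, at -0.016 without cells of 3 or more Myh11 UMIs, had been past 2-fold, and the other 12 belonged to Mylk, Lmod1 and Ppp1r14a in contrasts whose reported interval held 0. Without those cells 1 gene (Actg2) was past 2-fold between the depots, 1 (Actg2) in bFAPLs over bCAPs, 0 between wFAPLs and bFAPLs, 5 in wCAPs over bCAPs, and 4 in wFAPLs over wCAPs, where Myh11 was below 10 CPM and Myl9 was at 0.90. With a minimum of 50 CPM, 0 genes were 2-fold apart between the depots, 1 (Actg2) was higher in bFAPLs and 4 were lower in wCAPs than in bCAPs, by construction of the minimum. G1 cells gave 7 genes in wFAPLs over wCAPs and 2 between wFAPLs and bFAPLs, with Mylk added in both. Labels carried over gave 0 genes between wFAPLs and bFAPLs and 5 in wCAPs over bCAPs, and left both counts of FAPLs over CAPs within a depot as reported. All captured cells and labelled cells, run for WAT over BAT alone, left its count as reported, and another scale and means over cells did so for all 5 contrasts. The shares of all genes past 2-fold at these alternative settings are not given, so the counts stand without them. At full depth 6 genes were wide and 0 kept to few cells. With at least 2 UMIs asked for, 3 were wide and 2 (Myh11 and Ppp1r14a) kept to few cells, and at 5000 UMIs 3 were wide, without Mylk. Depth limits Myh11, Ppp1r14a and Lmod1, where 1 UMI in a thinned cell is 100 CPM.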

Other observations

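The filters removed 854 white and 872 brown cells. Those of them with at least 1000 genes, 696 white and 756 brown cells, held the 9 genes at 82.8 to 114% of the precursor level in WAT and 77.6 to 136% in BAT, while their median depths were 12102 and 51576 UMIs. Myh11 gave the lowest value in WAT, at 34.1 CPM beside 41.2, and the highest in BAT, at 21.3 CPM beside 15.6. These removed cells also held the highest single-cell levels of Acta2, 72779 CPM in WAT and 73219 CPM in BAT, and of Tagln, 19265 and 15707 CPM.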
